A study of Mus musculus with 11 samples.

Results

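Potassium channel genes were read out in the hypothalamus of adult mice heterozygous for Myt1l and of wild-type animals. The members were all genes whose symbol begins with Kcn, whatever their level or change, and they numbered 80 of the 14864 genes in the expression table, of which 77 are described here. By the role of their proteins these 77 comprised 14 alpha subunits of the Kcna, Kcnb, Kcnc and Kcnd subfamilies, 8 silent alpha subunits (Kcnf, Kcng, Kcns, Kcnv), 8 Kcnh genes, 3 Kcnq genes, 13 inward rectifiers (Kcnj), 10 two-pore channels (Kcnk), 8 Slo and SK channels (Kcnma, Kcnn, Kcnt, Kcnu) and 13 auxiliary subunits (Kcnab, Kcne, Kcnip, Kcnmb). MYT1L is a zinc finger transcription factor of neurons. RNA-seq libraries came from 5 wild-type animals (WT, 2 females and 3 males) and 6 heterozygotes (Het, 3 females and 3 males), all aged P60-70, that is 60 to 70 days after birth. The labels name the genotype only as WT or Het and do not give the allele or the strain. Genotypes are used here as labelled.

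Potassium channels let potassium leave the cell, which returns the membrane to rest after an action potential and sets how easily a neuron fires again. The voltage-gated alpha subunits assemble as tetramers, and subunits of the same subfamily mix. Inward rectifiers and two-pore channels hold the resting potential in neurons and glia, and auxiliary subunits alter the trafficking and gating of the channels they bind.

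Values are depth-scaled counts (CPM) after a correction by the authors, and levels are compared between genes only as CPM per kilobase of exonic sequence. The corrected counts per library totalled 22921048 to 24941704. Myt1l did not separate the genotypes: its CPM was 76.3 ± 15.9 in WT and 76.3 ± 26.9 in Het (SD, n = 5 and 6), the lowest library being WT replicate 11 (51.1) and the highest Het replicate 9 (130). The striatal and hypothalamic marker lists moved with genotype, though their sums overlapped between groups. Of 14 striatal markers 6 were higher in Het by the test used below, where 2.3% of all genes were. The summed CPM of the 14 ran from 1824 to 2309 in WT and from 2058 to 3769 in Het, the maximum being Het replicate 9. Of 14 hypothalamic markers 5 were lower, where 1.14% of all genes were. Their sums were 3011 to 3945 in WT and 2033 to 3303 in Het, the minimum being again Het replicate 9. The sums of 8 pan-neuronal markers also overlapped (5777 to 6227 in WT, 5608 to 6465 in Het). No list of another cell type had more than 1 marker that passed, but some lists shifted. Of 5 oligodendrocyte precursor markers 1 was higher. Their median log2 difference was 0.35, with sums of 92.9 to 107 in WT and 102 to 121 in Het. For the 4 choroid plexus markers measured the median was -0.42. None of the 4 passed, and their sums overlapped (10.8 to 40.7 in WT, 9.40 to 24.2 in Het). Both WT replicate 11 and Het replicate 9 are treated below as libraries in doubt. In bulk tissue, fewer cells of a type and less RNA per cell cannot be told apart.

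The 250 bases upstream of the start of the inward rectifier Kcnj2 are shown. A window was used if the reference held one and it lay outside the annotated transcripts of its gene. Kcnj2 was the only member with such a window among those that passed the genotype test, and it had the largest difference of them. The window, from RefSeq on GRCm38.p6, lies on the plus strand at chr11:111065914-111066163. The capitals mark ATTGG, which is the CCAAT box read on the opposite strand.
Kcnj2: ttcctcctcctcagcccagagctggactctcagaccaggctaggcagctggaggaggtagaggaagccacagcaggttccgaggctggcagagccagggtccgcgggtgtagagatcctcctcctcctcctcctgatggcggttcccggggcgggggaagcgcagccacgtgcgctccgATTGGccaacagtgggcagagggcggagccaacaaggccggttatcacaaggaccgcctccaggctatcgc
The window is 65.6% G and C. It holds 1 CCAAT box and neither AAGTT, the core of the motif bound by MYT1 family zinc fingers, nor TGACG, the core of the cAMP response element. Each of the 3 motifs was searched on both strands and was chosen after the expression values had been seen. Windows of this length were at hand for 57 of the 77 members. AAGTT occurred in 21.1% of them, in 28.6% of the windows of all genes in the table and in 35.7% of all RefSeq windows. For TGACG these shares were 19.3%, 25.5% and 17.8%, and for CCAAT they were 31.6%, 36.1% and 34.5%. A match describes the letters in the window only.

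Levels of the family spanned more than 2 orders of magnitude per length of transcript. The highest were the two-pore channel Kcnk1, with 29.7 ± 3.3 CPM per kb in WT (SD, n = 5), and 4 auxiliary subunits: Kcne1l (26.3 ± 5.7), the calcium-binding Kv4 partners Kcnip4 (24.7 ± 2.7) and Kcnip3 (23.5 ± 1.8), and the Kv1 beta subunit Kcnab2 (17.7 ± 1.1). Among Kcnk1, Kcne1l, Kcnip4 and Kcnip3, neighbours in this order differed by about 1 SD or less, and Kcnab2 lay more than 3 SD below Kcnip3. Below them came the glial inward rectifiers Kcnj16 (10.7 ± 0.87) and Kcnj10 (10.1 ± 0.99), which overlapped each other, then Kcnip2 (9.16 ± 2.0), the G-protein-gated rectifier subunit Kcnj9 (7.76 ± 2.3) and the A-type alpha subunit Kcnd2 (7.66 ± 0.78). The median over the 69 members tested was 1.29 CPM per kb, against 3.61 over all genes tested. By class, the median of the members tested was 6.68 CPM per kb for auxiliary subunits, 2.63 for inward rectifiers, 1.82 for two-pore channels and 2.09 for the Kcna to Kcnd alpha subunits. It was 1.09 for silent subunits, 0.922 for Slo and SK channels, 0.759 for Kcnq and 0.462 for Kcnh.

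**Figure D1:**
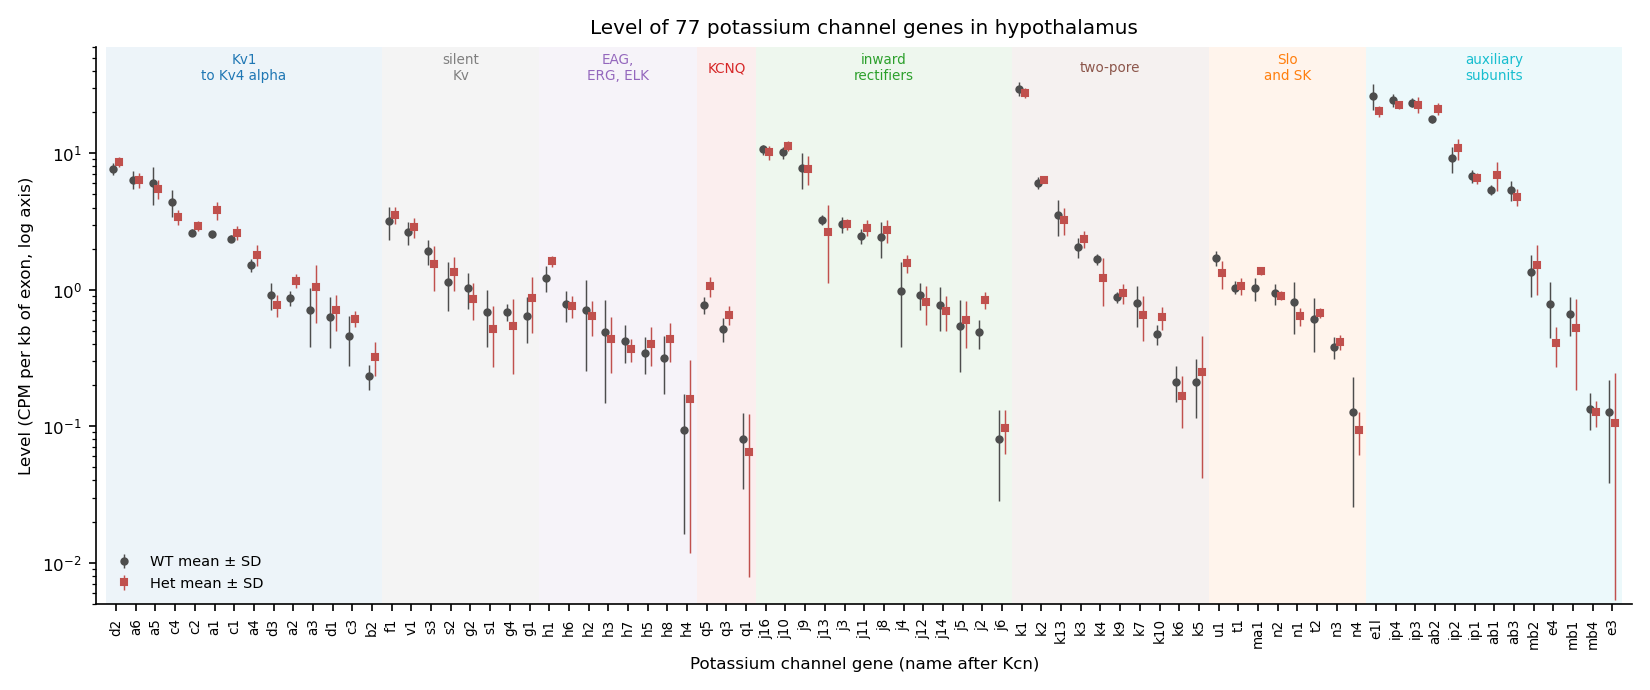
Level of each of the 77 members in CPM per kb of exonic sequence (log axis), grouped by class and ordered by the WT mean, as the mean with SD in WT (n = 5, grey circles) and Het (n = 6, red squares) libraries. A lower bar is shortened where the SD reaches or nearly reaches the mean. Kcnk1, Kcne1l, Kcnip4 and Kcnip3 lie above 20 in both groups, and most Kcnh genes lie below 1.

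The lowest members were Kcnq1 (0.0799 ± 0.045 CPM per kb in WT) and Kcnj6 (0.0803 ± 0.052). They and Kcne3, Kcnh4, Kcnk5, Kcnk6, Kcnmb4 and Kcnn4 had a mean under 1 CPM over all 11 libraries and were not tested. Kcne3, an auxiliary subunit found mostly in epithelia, was at 0 in at least 1 Het library and reached 0.671 CPM in another. For 24 of the 77 members, exons overlap those of a gene on the opposite strand, and nothing in the sources used here says that reads were counted by strand, so the 2 genes' reads cannot be told apart there. The longest overlaps were 2355 bases in Kcna6, 1621 in Kcnj3, 1048 in Kcnmb4 and 1016 in Kcnma1. In addition, Kcnab2 and Kcnk4 share exonic bases with a gene on their own strand.

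Between genotypes, 3 members rose in Het animals and none fell. The risers were the alpha subunit Kcna1, the inward rectifier Kcnj2 and the beta subunit Kcnab2. The test was limma on log2(CPM + 0.5) with genotype and sex as terms, and with p adjusted by Benjamini-Hochberg over all 13184 genes tested. On that basis 3 of 69 members passed (4.35%), where 3.44% of all genes passed in either direction, 2.3% upward and 1.14% downward. At an unadjusted p under 0.05 there were 14 members higher and 5 lower in Het (20.3% and 7.25%), against 10.6% and 11.7% of all genes and 22.3% in either direction. The log2 difference was positive in 39 of 69 members (56.5%) and in 47% of all genes, and the family's median was 0.09 against -0.02 over all genes. That median was 0.01 (-0.01 over all genes) with a trend in length and GC content taken out of each library, and 0.03 (-0.02) with no filter on low values. The 4 members with all Het values above all WT values were Kcna1, Kcna2, Kcnab1 and Kcnj2, which is 5.8% of those tested against 2.02% of all genes. No member had all Het values below all WT values, against 1.33% of all genes. The deposited values had unwanted factors removed, in a number not stated, which the test does not see, so the p-values are too small. With 1 residual degree of freedom taken off, Kcna1 alone passed (adjusted p = 0.0270, limma), and a larger number was not tried.

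**Figure D2:**
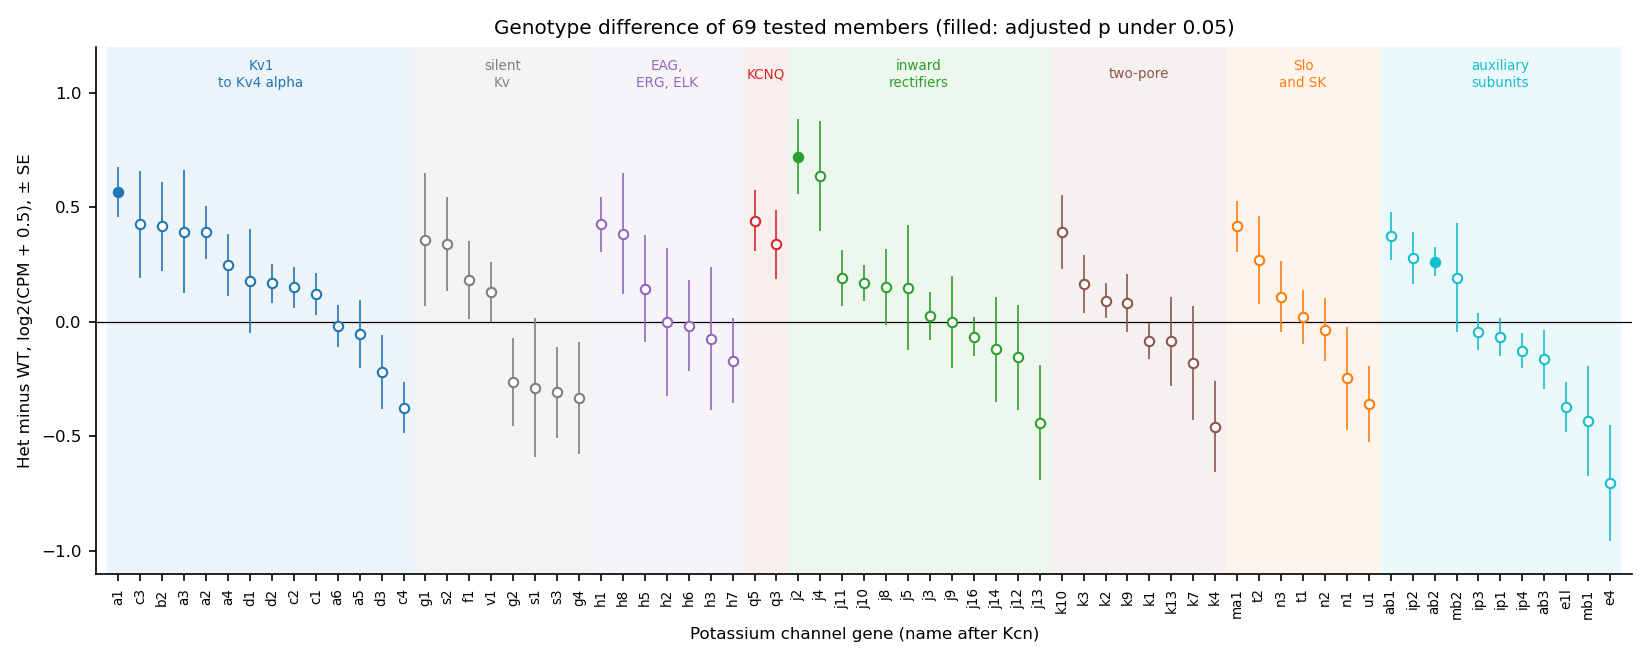
Het minus WT difference on the log2(CPM + 0.5) scale with its SE (vertical lines) for the 69 members tested, grouped by class and ordered by the difference. The 3 filled points are the members that passed (Kcna1, Kcnj2 and Kcnab2), all above 0, and the most negative point is Kcne4 at -0.70.

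Kcna1 encodes an alpha subunit of the Kv1 channels, which sit beside the nodes of axons and at terminals and limit repetitive firing. The gene (ENSMUSG00000047976) lies on the minus strand of chromosome 6 at 126640397 to 126646384 (GRCm38), next to Kcna5 and Kcna6. Its CPM in the WT libraries was 12.5 and 13.2 in the females (replicates 4 and 6) and 11.3, 11.7 and 12 in the males (replicates 3, 7 and 11). The Het libraries ran from 16.8 through a median of 17.1 to 23.9. Every Het value lay above every WT value, and Het replicate 9 stood highest, well above the other Het libraries. The mean was 12.1 ± 0.754 in WT and 18.3 ± 2.78 in Het (SD, n = 5 and 6), a log2 difference of 0.57 (SE 0.11, 95% interval 0.34 to 0.80, fold 1.48, limma adjusted p = 0.0121). Kcna1 passed in all 11 fits that left out 1 library each, and without both WT replicate 11 and Het replicate 9 its difference was 0.48 (adjusted p = 0.0343). It did not pass with the level of striatal markers as a further term (0.33, adjusted p = 0.287). The rise was not shared by every Kcna gene. Kcna2, its usual partner in axonal tetramers, had 9.52, 11.9, 11.4, 9.06 and 9.79 CPM in WT and 12, 13.2 and 16.1 (lowest, median, highest) in Het. The Kcna2 groups did not overlap, but its log2 difference of 0.39 did not pass (adjusted p = 0.0683). Kcna6, the subfamily's highest gene per length, was alike in both groups on average (38.1 ± 5.64 and 38.1 ± 4.79 CPM) with a log2 difference of -0.02 (95% interval -0.21 to 0.18). Kcna3, Kcna4 and Kcna5 did not pass either, with log2 differences of 0.39, 0.25 and -0.05. The median over the 6 Kcna genes was 0.32.

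**Figure D3:**
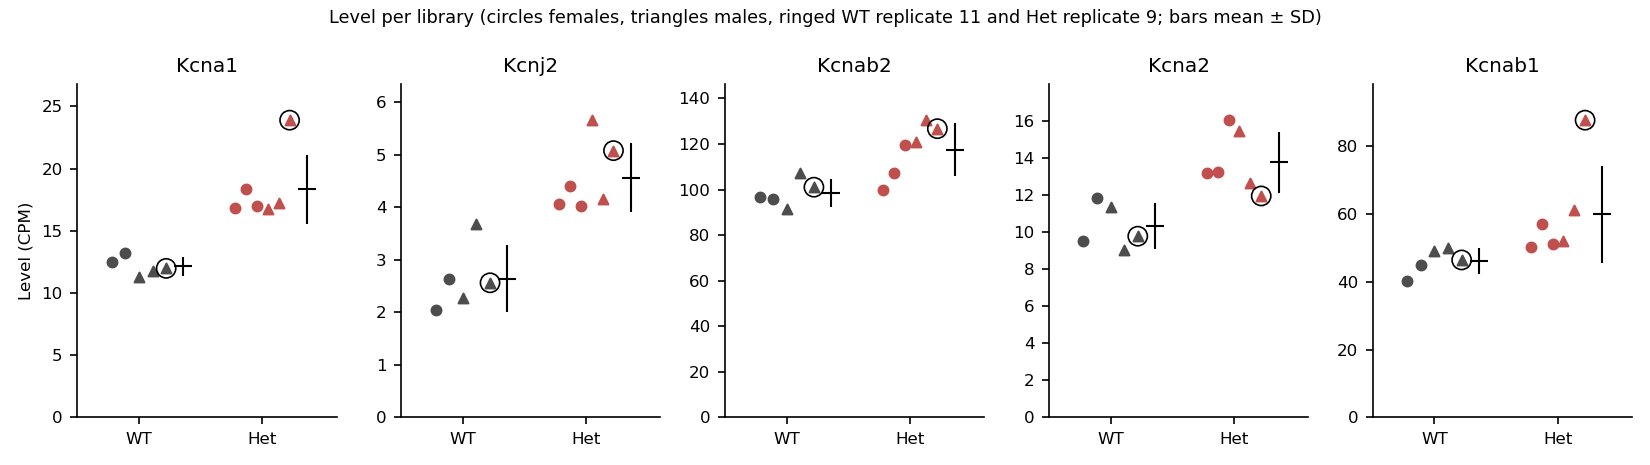
CPM in each library (linear axes from 0) for Kcna1, Kcnj2, Kcnab2, Kcna2 and Kcnab1, with females as circles, males as triangles, and the mean with SD of each group as a cross to its right. Rings mark WT replicate 11 and Het replicate 9. In the Kcna1, Kcnj2, Kcna2 and Kcnab1 panels no Het point falls to the level of a WT point.

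Of the beta subunits that bind Kv1 channels from the cytoplasm, Kcnab2 rose. It lies on the minus strand of chromosome 4 at 152390742 to 152477871. Its CPM was 96.9, 95.8, 91.5, 107 and 101 in WT and ran from 100 through a median of 120 to 130 in Het. The groups overlapped, with Het replicates 2 and 4 inside or at the edge of the WT range. The mean was 98.5 ± 5.99 in WT and 117 ± 11.6 in Het, a log2 difference of 0.26 (SE 0.06, 95% interval 0.13 to 0.40, fold 1.2, limma adjusted p = 0.0368). Kcnab2 did not pass in 9 of the 11 fits with 1 library left out. Nor did it pass with a trend in length and GC content taken out of each library (0.22, limma adjusted p = 0.137). Kcnab1 had 40.1, 44.9, 49.0, 49.9 and 46.4 CPM in WT and 50.1, 54.4 and 87.6 (lowest, median, highest) in Het. Its groups were separated by a narrow gap, Het replicate 9 lay far above the rest, and the log2 difference of 0.37 did not pass (adjusted p = 0.0574). Kcnab3, the least abundant of the subfamily per length, had a difference of -0.16 (adjusted p = 0.475).

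Among the other voltage-gated alpha subunits no gene passed. Kcnb2, a delayed rectifier subunit, had 3.53 ± 0.746 CPM in WT and 4.89 ± 1.36 in Het, a log2 difference of 0.42 (95% interval 0.00 to 0.83, adjusted p = 0.220). Some of the Kcnc subunits, though not Kcnc4, carry the fast delayed rectifier of rapidly firing neurons. Kcnc4, the highest Kcnc gene per length, had 19.8, 19.5, 11.5, 14.6 and 15 CPM in WT and 10.1, 12.8 and 14.5 in Het. Only the WT females and WT replicates 7 and 11 stood above the Het libraries. The log2 difference of Kcnc4 was -0.38 (limma adjusted p = 0.0731). The A-type subunit Kcnd2 had 39.5 ± 4.03 CPM in WT and 44.6 ± 3.90 in Het, a difference of 0.17 (95% interval -0.01 to 0.35, adjusted p = 0.254). Over the 14 Kcna to Kcnd subunits, 1 rose (2.3% of all genes), 10 differed in the positive direction (47% of all genes), and their median difference was 0.17.

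The silent subunits form no channel alone and modify Kcnb tetramers. None of the 8 passed, and their median log2 difference was -0.07. Kcnf1, the highest per length, had a difference of 0.18 (adjusted p = 0.557), Kcnv1 of 0.13 (0.591), Kcng2 of -0.26 (0.439), Kcns2 of 0.34 (0.340) and Kcns3 of -0.31 (0.375). Of the Kcnh genes, relatives of the ether-a-go-go channel, 7 were tested and none passed, with a median of 0.00. Kcnh1 had 6.68, 8.10, 10.2, 11.5 and 8.40 CPM in WT and 10.4, 11.7 and 13.3 (lowest, median, highest) in Het. Most Kcnh1 values were higher in Het, WT replicate 7 lay among them, and the difference of 0.43 did not pass (adjusted p = 0.0595).

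The Kcnq genes encode the M-current, a slow potassium current that muscarinic receptors suppress. Neither Kcnq5 nor Kcnq3 passed. Kcnq5 had 4.88, 6.04, 6.20, 7.09 and 5.42 CPM in WT and 5.96, 8.73 and 9.47 (lowest, median, highest) in Het. Most Het values of Kcnq5 lay above the WT range, and Het replicates 2 and 4 lay within it. The difference was 0.44 (95% interval 0.16 to 0.73, adjusted p = 0.0772). Kcnq3 had 7.58 ± 1.52 CPM in WT and 9.66 ± 1.6 in Het, a difference of 0.34 (adjusted p = 0.198). Kcnq1 was below the level tested.

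Kcnj2 encodes a strong inward rectifier that holds neurons near their resting potential. The gene (ENSMUSG00000041695) lies on the plus strand of chromosome 11 at 111066164 to 111076821, just downstream of the window printed above. Its CPM was 2.05, 2.64, 2.28, 3.69 and 2.56 in WT and ran from 4.03 through a median of 4.29 to 5.66 in Het. No group member crossed over, the nearest values being WT replicate 7 and Het replicate 7. The mean was 2.64 ± 0.631 in WT and 4.57 ± 0.663 in Het, a log2 difference of 0.72 (SE 0.16, 95% interval 0.38 to 1.06, fold 1.65, limma adjusted p = 0.0250). This scale understates the change of a gene of so low a level. Kcnj2 did not pass without WT replicate 4, WT replicate 6, Het replicate 5 or Het replicate 9, nor without both libraries in doubt (0.69, adjusted p = 0.0729).

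No other inward rectifier passed among the 12 tested, whose median difference was 0.09. Kcnj4, another strong inward rectifier, had 4.13, 1.80, 1.10, 0.965 and 2.56 CPM in WT and 2.56, 3.36 and 3.90 (lowest, median, highest) in Het. WT replicate 4 lay above every Het library, and the difference of 0.64 did not pass (adjusted p = 0.133). Kcnj10, the potassium-buffering channel of astrocytes, had 54.8 ± 5.33 CPM in WT and 61.4 ± 5.38 in Het, a difference of 0.17 (adjusted p = 0.219). The astrocyte markers overlapped between groups, with summed CPM of 4917 to 5753 in WT and 4880 to 5300 in Het. Kcnj16, which pairs with Kcnj10, had a difference of -0.06. The subunits of ATP-sensitive channels, Kcnj8 and Kcnj11, had differences of 0.15 and 0.19, and the G-protein-gated subunits Kcnj3, Kcnj5 and Kcnj9 had 0.02, 0.15 and 0.00. None of these passed.

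The two-pore channels carry the background leak. None of the 8 tested passed, and their median was 0.00. Kcnk1, the highest member per length, had 66.3 ± 7.42 CPM in WT and 62.0 ± 5.00 in Het, with a difference of -0.08 (95% interval -0.25 to 0.09, adjusted p = 0.572). Kcnk10 had the smallest p of the subfamily, with 4.12 ± 0.693 and 5.53 ± 1.06 CPM and a difference of 0.39 (adjusted p = 0.164).

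Of the Slo and SK channels none of the 7 tested passed, with a median of 0.02. Kcnma1, the large-conductance channel opened by calcium and voltage together, had 17.2, 18.4, 22.4, 13.5 and 15.2 CPM in WT and 21.2, 22.9 and 26.0 (lowest, median, highest) in Het. Only WT replicate 3 reached into the Het range. The difference was 0.42 (SE 0.11, limma adjusted p = 0.0506), just short of the threshold, and 1016 of its exonic bases overlap a gene on the other strand. The small-conductance channels Kcnn1, Kcnn2 and Kcnn3 had differences of -0.25, -0.03 and 0.11. The sodium-activated channel Kcnt1 had 0.02, and Kcnu1, a channel best known from sperm, had -0.36 (adjusted p = 0.216).

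The remaining auxiliary subunits did not pass. Kcne1l, the highest of the Kcne subunits per length, had 49.1, 43.8, 31.5, 31.0 and 47.8 CPM in WT and 26.2, 31.8 and 34.3 (lowest, median, highest) in Het. The males WT replicates 3 and 7 lay inside the Het range and the other WT libraries above it. Its difference was -0.37 (adjusted p = 0.0714). Kcne4 had the most negative difference of the family, -0.70, at a level of 2.09 ± 0.921 CPM in WT and 1.07 ± 0.355 in Het (adjusted p = 0.118). Of the calcium-binding Kv4 partners, Kcnip2 had 31.8 ± 6.85 and 37.8 ± 6.55 CPM with a difference of 0.28 (adjusted p = 0.164), and Kcnip4 had 89.5 ± 9.79 and 81.8 ± 5.01 CPM with a difference of -0.13 (0.350). The Kcnma1 subunits Kcnmb1 and Kcnmb2 had differences of -0.43 and 0.19 (0.301 and 0.674). Over all 11 auxiliary subunits tested, Kcnab2 alone passed, and the median was -0.07.

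Several of these genes are also expressed in striatum, and striatal markers moved with genotype, so the fit was repeated with the mean log2 level of the 14 striatal markers as a further term. No member passed there, and of all 13184 genes 3 did. The difference was then 0.33 for Kcna1 (adjusted p = 0.287), 0.74 for Kcnj2 (0.171) and 0.24 for Kcnab2 (0.238). For members that had not passed it was 0.66 for Kcna2, 0.60 for Kcnma1 and 0.07 for Kcnab1. Kcna1 and Kcnab1 thus had smaller differences with this term, Kcna2 and Kcnma1 larger ones, and Kcnj2 and Kcnab2 about the same. The identifiers in the labels carry prefixes whose meaning is not stated. Within prefix 14308 (2 WT and 2 Het males) the differences were 0.55 for Kcna1, 0.65 for Kcnj2 and 0.34 for Kcnab2. Within prefix 14309 (2 WT and 4 Het) they were 0.62, 0.69 and 0.24, and none passed within either prefix, in fits where 6 and 16 of all 13184 genes did. The only library with prefix 14111 was WT replicate 4. Whether striatal tissue in the dissections has a part in the differences was not tested.

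**Figure D4:**
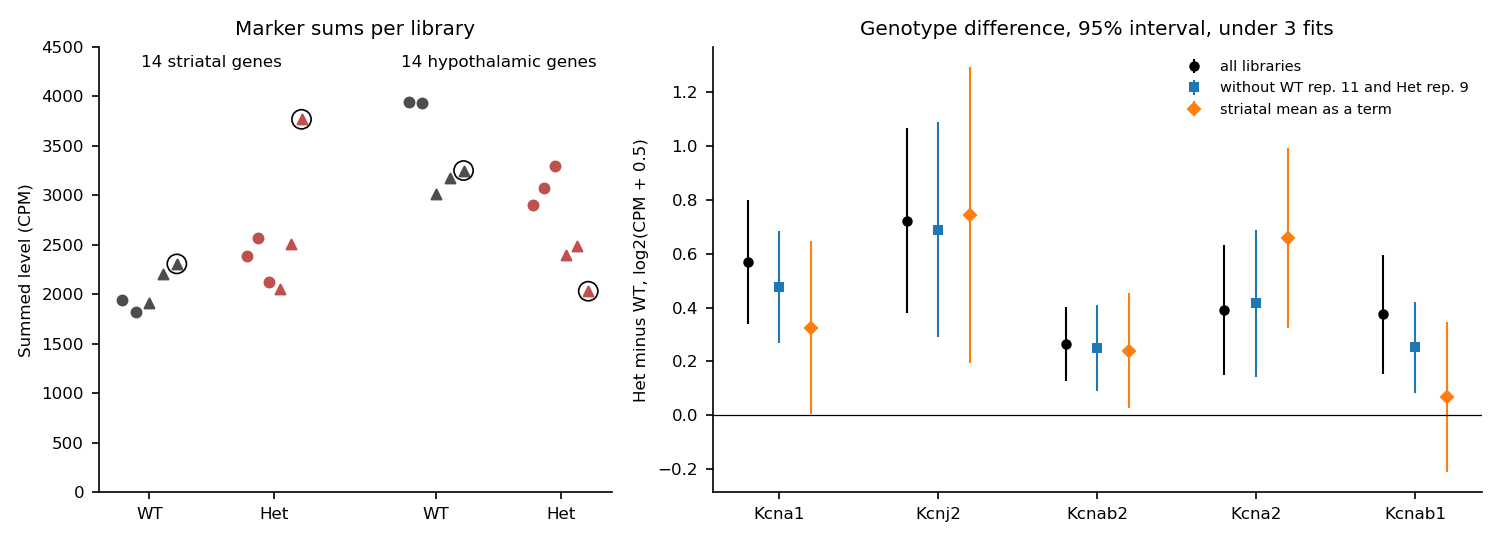
Left, summed CPM of the 14 striatal and of the 14 hypothalamic markers in each library (females circles, males triangles), in which the ringed Het replicate 9 has the highest striatal sum (3769) and the lowest hypothalamic sum (2033). Right, Het minus WT difference with its 95% interval for 5 members in the fit to all libraries, without WT replicate 11 and Het replicate 9, and with the striatal mean as a term, where Kcnab1 moves from 0.37 to 0.07 and Kcna2 from 0.39 to 0.66.

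Potassium channels work with scaffolds, adhesion proteins and signalling enzymes that bear other names, and 32 of 34 such partner genes listed for this comparison were measured. Of these 4 rose and none fell, where 2.3% and 1.14% of all genes did. A positive difference was found in 25 of the 32, against 47% of all genes, and their median was 0.10 against -0.02. Akap5, the anchoring protein that brings kinases to M-channels, had 24.2 ± 4.47 CPM in WT and 40.8 ± 12.5 in Het, a log2 difference of 0.75 (limma adjusted p = 0.0071). It passed with any 1 library left out, but with the striatal term its difference was 0.26 and did not pass. The other 3 risers were partners of Kv1 channels: the scaffolds Dlg1 (difference 0.29, adjusted p = 0.0339) and Dlg2 (0.38, 0.0358), and the adhesion protein Cntnap2, which places Kv1 channels beside the node (0.27, 0.0471). Dlg1, Dlg2 and Cntnap2 did not pass in 9, 8 and 10 of the 11 fits with 1 library left out. With a trend in length and GC content taken out of each library, none of the 3 passed, and their differences were 0.16, 0.21 and 0.15. All 9 measured partners of Kv1 channels had a positive difference in the fit to all libraries, with a median of 0.26, beside 47% and -0.02 over all genes. In the remaining groups nothing passed. The smallest p belonged to Vapb among the partners of Kv2 channels (difference 0.14), Dpp10 of Kv4 channels (0.02), Lrrc38 of Kcnma1 (-0.50), the sulfonylurea receptor Abcc9 (0.34) and, of the HCN channels, Hcn3 (-0.40, adjusted p = 0.0957).

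Between the sexes no member passed, where 0.197% of all genes did. At an unadjusted p under 0.05 there were 13 members (18.8%), against 12.2% of all genes. Sex was partly aligned with the identifier prefix, as all libraries of prefix 14308 were male and that of prefix 14111 was female. Differences by sex and by prefix therefore cannot be fully told apart. With the prefix as a further term, 0 members passed between the sexes. Kcnc4 had the smallest p, with 15.9 ± 3.53 CPM in 5 females and 12.6 ± 1.96 in 6 males, a female minus male difference of 0.35 (limma adjusted p = 0.230). Kcns2 had 5.60 ± 2.38 CPM in females and 8.17 ± 1.38 in males (-0.62, adjusted p = 0.239), and the silent subunit Kcng2 had 3.36 ± 0.55 and 2.31 ± 0.757 (0.51, 0.293).

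A genotype difference that itself differed by sex was called for no gene of the table (0%), members included. At an unadjusted p under 0.05 there were 3 members (4.35%), against 4.65% of all genes. The sodium-activated channel Kcnt2 had the smallest p: the WT females had 1.96 and 2.85 CPM, the WT males 4.87 to 6.38 and all Het libraries 4.21 to 5.32. Its Het minus WT difference was 0.82 in females and -0.17 in males (limma adjusted p of the interaction 0.982). In Kcnab3 the differences were -0.47 in females and 0.08 in males, and in Kcng4 they were -0.88 and 0.10 (adjusted p = 0.982 for both). The 3 members that had passed between genotypes were higher in Het in either sex. They had been picked by the fit to these same libraries, so the shared direction is no further support. In females the differences were 0.42 for Kcna1, 0.72 for Kcnj2 and 0.17 for Kcnab2, and in males they were 0.69, 0.72 and 0.34.

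**Figure D5:**
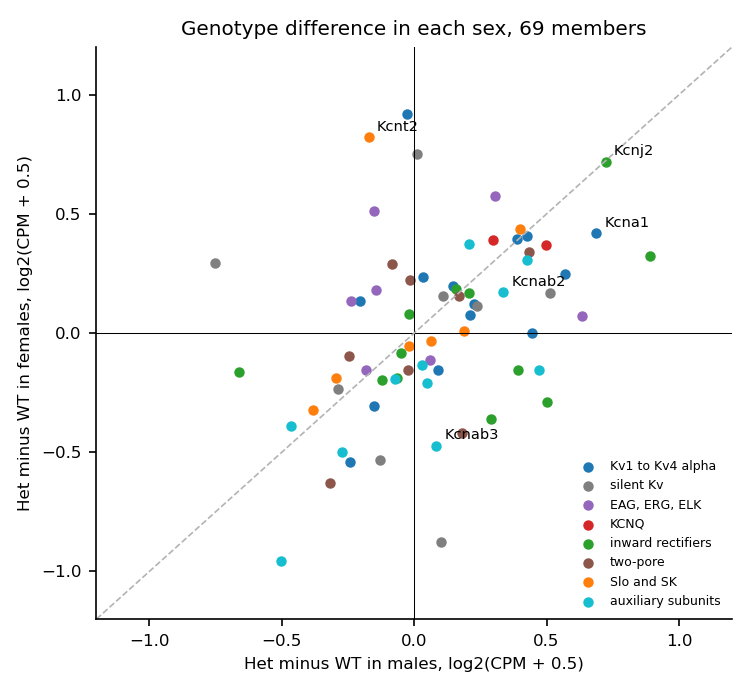
Het minus WT difference on the log2(CPM + 0.5) scale in females (y axis) against males (x axis) for the 69 members tested, coloured by class, with the dashed line where both are equal. The labelled Kcnt2 lies near the top, at 0.82 in females and -0.17 in males, and Kcna1, Kcnj2 and Kcnab2 are positive on both axes.

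After genotype and sex had been taken out, the genes outside the family whose values most resembled those of Kcna1 over the 11 libraries were Ap4b1 (Pearson r = 0.957), Klf13 (0.936) and Gpr52 (0.929). Ap4b1 lay at the lowest level tested, with 0.998 ± 0.265 CPM in WT and 1.05 ± 0.323 in Het. Klf13 had 84.4 ± 8.80 and 105 ± 21.9, and Gpr52 had 3.15 ± 1.14 and 5.31 ± 3.78. These correlations are a description over libraries that share the same correction, and Het replicate 9 was the highest Kcna1 library.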

How the data were processed

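RNA-seq of adult mouse hypothalamus was deposited as 1 table of log2 values for 11 libraries. Total RNA (Zymo kit) went into SMARTer Ultra Low libraries, per the labels. The submitters' processing notes name Trimmomatic, Bowtie2, STAR, HTSeq and the build mm10, with no versions. Per the file headers, the authors deposited CPM after RUVr, a correction that removes factors estimated from residuals, and the values are on a log2 scale with a floor of -3.574 (a count of 0). How many factors were removed is not stated in these sources. Back-transformed, the values are whole multiples of 1 corrected count within 0.02, so the totals are of corrected, not raw, counts. All libraries share 1 upper quartile, and depth limits members under 1 CPM most.

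Genes with a mean of at least 1 CPM (13184 of 14864) were fitted as log2(CPM + 0.5) with limma 3.58.1 in R 4.3.3 (lmFit, eBayes with trend; genotype and sex as terms; Benjamini-Hochberg over all of them, threshold 0.05). Exonic lengths, coordinates and overlaps came from GENCODE M21 (GRCm38), in which 14862 genes were found by ID. The fit was checked on simulated data with independent noise and no removed factors, so that check says nothing about the effect of the correction on p. Replicates are labelled as separate animals by number only, so p-values measure the spread between these samples. Named were members that passed or whose groups did not overlap, the highest member per length and the smallest p of each subfamily, the 3 smallest p for sex and for the interaction, partner genes that passed or had the smallest p of their group, and the 3 genes most like Kcna1. Other members were named, after their values were seen, to complete a subfamily. Alternatives changed the pseudocount, filter, scaling, terms and libraries. The members and lists were chosen with earlier results of these data known. Of the 80 genes that match the rule, 3 are not reported here and enter no count of members, though they stayed in the fit over all genes.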

Additional observations from a re-analysis of the deposited data

Results flagged for a closer look

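For 32 named members each genotype group was searched for 1 library far from all the others (64 groups in all), and 5 such values were found. Chance alone flags about 1 in 20 groups. In Het replicate 9, Kcna1 reached 23.9 CPM where the other Het libraries had 16.8 to 18.4, Kcnab1 reached 87.6 against 50.1 to 61.2, and Kcnip2 reached 50.8 against 33.5 to 37.5. Kcna6 was 47.4 CPM in Het replicate 7 against 35.1 to 38.9 in the rest of its group. Kcnmb1 was 5.03 CPM in Het replicate 4 against 1.3 to 1.94.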

How the results depend on the processing

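Against 3 members higher in the fit reported, 1 was higher with WT replicate 11 and Het replicate 9 both left out, 1 with 1 residual degree of freedom taken off, and 0 with the striatal mean as a term, in females alone, in males alone, within prefix 14308 or within prefix 14309. In the last 5 fits 3, 0, 1, 6 and 16 of all 13184 genes passed, so a count of 0 there says nothing about the members. The count was 2 with libraries centred on their median, with genotype alone, with the prefix as a term or with a trend in length and GC content removed. In those fits 3.61%, 1.52%, 2.28% and 1.56% of all genes passed. Kcnab2 did not pass in any of them, and Kcnj2 did not pass with the prefix as a term. The 2 members counted with the prefix term were thus not both among the 3 reported. Of the partner genes, 4 were higher in the fit reported, 2 with libraries centred on their median or with genotype as the only term, and 1 with both libraries left out, with the prefix as a term, with 1 residual degree of freedom taken off or with a trend in length and GC content removed. With the striatal term, in either sex alone and within either prefix 0 partner genes were. Their median was 0.039 within prefix 14308 and 0.027 after correction for length and GC content.

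The family's median, 0.092 in the fit reported, was 0.031 with no filter on low values, 0.025 within prefix 14309 and 0.011 after correction for length and GC content. With 1 library left out at a time, 1 to 6 members were higher and 0 to 2 lower, and the family's median was 0.049 to 0.096. The members counted were not always among those reported as risers. Kcna1 was the 1 member that passed when WT replicate 4, WT replicate 6 or Het replicate 9 was dropped. The 6 higher and 2 lower members arose on dropping WT replicate 3, where 6.22% of all genes passed, against 1.06% to 3.32% when any other library was dropped. Of the partner genes 1 to 5 were higher, with a median of 0.07 to 0.13. Counts for sex and for the interaction were 0 in each of these fits.

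Only numbers 4 and 7 occur in both genotypes, and they do not pair the animals (correlation of deviations 0.13 and -0.09). With the replicate block, 0 members and 0 partner genes were higher, with medians of 0.031 and 0.158, in a fit with 1 residual degree of freedom. The other pseudocounts, filters and scalings left the count of members within 1.5 times, but not always the same members. With a filter at a mean of 5 CPM, 4 of 42 members were higher, where 5.26% of all genes passed in either direction. Kcnj2, at a mean of 3.69 CPM, was not tested there, so those 4 include members other than the 3 reported. No member that passed changed direction. Members of low level are limited by depth.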
